A study of Mus musculus with 3 samples.

Results

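Hbb-b1 and Hbb-b2 encode the adult beta chains of mouse hemoglobin, and their promoters were 2 of the 7184 captured promoters (viewpoints) with listed contacts in this data set. They were taken as the rows of the contact table that carry these 2 names. Contacts were measured with nuclear-titrated (NuTi) Capture-C, in which chromatin is cut with DpnII inside the nucleus, nearby ends are ligated, and biotinylated probes pull down the ligation products of chosen fragments. The erythroid cells came from spleens of C57BL/6 by CBA/J F1 hybrid mice that received 3 doses of phenylhydrazine 12 h apart and were killed on day 5, and they were selected for the surface marker ter119. All mice carried the treatment, which destroys red cells and fills the spleen with erythroid precursors, so no untreated, non-erythroid or mutant group was available for comparison. The 3 libraries formed 1 group and held 18230099, 34428035 and 34233560 listed events between a viewpoint and a fragment of its own chromosome (cis events), and since their columns carry no names they are called libraries a, b and c. No source used here says whether they came from separate mice, so the spread given below may be partly technical. Expression data were not used here, so the erythroid identity of the cells was not checked against marker genes. Coordinates follow mm9, a build of the mouse genome.

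The beta-globin genes lie in a row on chromosome 7. Hbb-y and Hbb-bh1, the embryonic beta-like genes, lie nearest to the locus control region (LCR), a group of strong enhancers that drives all genes of the row, and the adult genes lie farthest from it. In adult erythroid cells the LCR is known to loop to the adult genes, and erythroid factors such as NF-E2 bind it. On both sides the row is embedded in olfactory receptor (Olfr) genes, which are silent in red cells.

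The names of the viewpoint list run opposite to those of the gene annotation. The viewpoint named Hbb-b1 covered chr7:110961967-110962817 (851 bp), where the annotation has Hbb-b2, the adult gene farther from the LCR, which RefSeq calls Hbb-bt. The viewpoint named Hbb-b2 covered chr7:110975976-110976456 (481 bp), where the annotation has Hbb-b1, which RefSeq calls Hbb-bs. Their midpoints lay 13.8 kb apart. The names of the viewpoint list are kept for viewpoints here.

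The adult genes are duplicates of each other, and their captured fragments share a long stretch. From the DpnII site inside the genes, 258 bases were identical in both viewpoints, and of the 452 words of 30 bases in the Hbb-b2 viewpoint 342 (75.7%) also occurred in the Hbb-b1 viewpoint. Laid side by side from that site without gaps, 348 of 481 bases (72.3%) were identical. The first 100 bases of this shared end are shown because a read that holds only these bases fits either gene. They read the same, on the plus strand, at chr7:110961967-110962066 and at chr7:110975976-110976075, with the DpnII site in capitals.
Shared viewpoint end: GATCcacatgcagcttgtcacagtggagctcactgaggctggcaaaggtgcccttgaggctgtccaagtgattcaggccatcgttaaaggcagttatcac

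The promoters themselves were not captured alike. The 150 bases before each RefSeq start are shown 5′ to 3′ on the minus strand, from which both genes are read, at chr7:110962438-110962587 for the Hbb-b1 viewpoint and chr7:110976443-110976592 for the Hbb-b2 viewpoint. Capitals mark CCAAT (or ATTGG, its complement), CCACACCC (the CACCC box bound by Klf1, an activator of adult globin genes) and the DpnII site GATC.
Hbb-b1 viewpoint, RefSeq Hbb-bt: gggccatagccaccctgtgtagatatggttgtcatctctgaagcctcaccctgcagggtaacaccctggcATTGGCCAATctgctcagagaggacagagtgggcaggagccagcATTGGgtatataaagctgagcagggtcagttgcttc
Hbb-b2 viewpoint, RefSeq Hbb-bs: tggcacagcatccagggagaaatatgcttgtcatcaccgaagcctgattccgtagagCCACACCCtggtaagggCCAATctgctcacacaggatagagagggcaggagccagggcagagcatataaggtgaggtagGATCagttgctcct
The Hbb-b1 viewpoint reached 380 bases upstream of its start and held a CCAAT box beginning 75 bases before it, with no CCACACCC in the 150 bases. The Hbb-b2 viewpoint reached only 14 bases upstream of its start, up to a DpnII site. Its CCAAT box, 76 bases before the start, and its CCACACCC, 93 bases before it, therefore lay on the neighbouring DpnII fragment, which was not a viewpoint. Among 32851 RefSeq promoters of 300 bases, 37.4% held CCAAT and 3.56% held CCACACCC on either strand.

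Hbb-b1 had 3176, 5603 and 5402 cis events in libraries a, b and c. Hbb-b2 had 3282, 5781 and 5625. Each made up between 0.0158% and 0.018% of the listed cis events of a library, and by their sums over the libraries they ranked 1339th and 1270th of the 6718 viewpoints with at least 1000 events. The events were spread over 7716 fragments for Hbb-b1 and 7864 for Hbb-b2. The study describes the libraries as independent. Over all 6718 viewpoints, however, the division of events over distance in libraries b and c differed by no more than counting error (chi-square over degrees of freedom 0.999), while library a differed from b and c (1.85 and 1.89). Such a value does not show that b and c came from 1 sample, since separate libraries with little spread would give it too. They were counted as 1 sample by choice, and means and SDs below are over n = 2, library a and the mean of b and c. An SD over 2 values can lie below the counting error of the events, so a small SD does not show precision. Statements about the spread below refer to these SDs only. For Hbb-b1 and Hbb-b2 alone, in windows along the locus, no library stood apart, with 0.749 and 0.71 for b against c and 0.731 to 1.17 for a against b or c.

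Most events of Hbb-b1 and Hbb-b2 fell on the same fragments in the same library. Within 100 kb, leaving out fragments within 1 kb of a viewpoint, 140 of 388 fragments listed for either viewpoint (36.1%) had the same number of events for both in each of the 3 libraries, against 633 of 823 (76.9%) at 100 kb to 1 Mb and 5577 of 6817 (81.8%) beyond 1 Mb, where a fragment held fewer events. Within 100 kb the 1084, 1850 and 1796 events of Hbb-b1 had 1025, 1788 and 1732 events of Hbb-b2 at the same fragment of the same library. Beyond 1 Mb the 1666, 3032 and 2868 events of Hbb-b1 had 1540, 2790 and 2653. The squared difference over the sum of the counts, which is about 1 for events counted separately, was 0.1, 0.0913 and 0.0947 there. Within 100 kb it was 0.107, 0.109 and 0.139.

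Such a match was rare among captured promoters. Over the 3432 pairs of viewpoints within 50 kb of each other, the same measure on shares beyond 100 kb had a median of 1.21, and 3423 pairs had at least 0.9. Only 7 pairs lay under 0.5. Hbb-b1 and Hbb-b2, at 0.0951, were second lowest after the zinc finger genes Zfp955a and Zfp955b at 0.0869, and the alpha-globin duplicates Hba-1 and Hba-2 had 0.28. The 2 beta-globin profiles are therefore treated below as largely 1 measurement, which cannot be divided between the 2 genes, and neither counts as a replicate of the other.

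**Figure D1:**
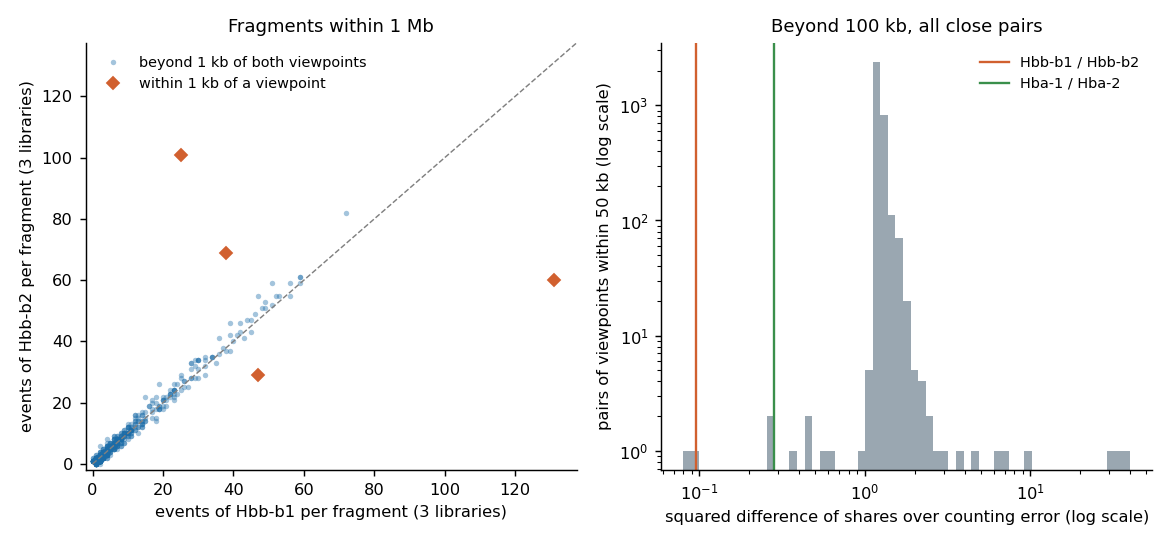
Left, events of Hbb-b1 (x axis) and Hbb-b2 (y axis) per DpnII fragment within 1 Mb, summed over the 3 libraries, with the line of equal counts dashed. Right, squared difference of shares over counting error beyond 100 kb for all 3432 pairs of viewpoints within 50 kb of each other, both axes on a log scale, with Hbb-b1 and Hbb-b2 at 0.0951 and Hba-1 and Hba-2 at 0.28. Fragments beyond 1 kb of the viewpoints lie along the line, and 4 fragments beside a viewpoint lie away from it.

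The larger differences lay beside the viewpoints. The fragment chr7:110974902-110975291, across the 3′ end of the annotated Hbb-b1 gene, had 38, 47 and 46 events with the Hbb-b1 viewpoint and 16, 22 and 22 with the Hbb-b2 viewpoint beside it. The fragment chr7:110959283-110961282, at the 3′ end of the annotated Hbb-b2 gene, had 5, 9 and 11 events with the Hbb-b1 viewpoint beside it and 30, 35 and 36 with the Hbb-b2 viewpoint. At both fragments the more distant viewpoint had the higher count in every library. The table lists no contact for the fragments closest to their own viewpoint, so 5 fragments around the Hbb-b1 viewpoint have values from Hbb-b2 only, and 3 around the Hbb-b2 viewpoint from Hbb-b1 only. The neighbouring fragment chr7:110976455-110977138, which holds the CCAAT and CCACACCC letters shown above, had 9, 16 and 22 events with Hbb-b1. Of the 30-base words of the first and second fragment, 15.5% and 10.7% recur on chromosome 7, and the part of shared sequence in these counts was not tested.

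Adult promoters were in contact mainly with the side of the LCR. Within 100 kb lay 38.2%, 35.7% and 36.7% of the cis events of Hbb-b1 in libraries a, b and c (mean 37.2 ± 1.40, SD, n = 2), and 38.3%, 37.2% and 37.5% of those of Hbb-b2 (37.8 ± 0.665). The median over all viewpoints was 24.3%, and the 2 ranked 376th and 336th of 6718. Of these local events, 78.9%, 79.9% and 79.6% of Hbb-b1 lay on the LCR side (79.4 ± 0.619), which ranked 30th of 6718 by the share on the heavier side. For Hbb-b2 it was 60.8%, 62.4% and 62.5% (61.6 ± 1.18), ranked 1047th. The stretch between the viewpoints and the fragments beside the other viewpoint count as LCR side for Hbb-b1 and as the opposite side for Hbb-b2, and with fragments that share sequence or lie within 1 kb of another viewpoint left out the shares were 77.3% and 68.0%. The viewpoints whose division of events over distance was most like that of Hbb-b1, apart from Hbb-b2, were Ptma, Slc20a1, Rffl_a, Ell2 and Arl4a, with a mean absolute difference of 1.38 to 1.65 percentage points over 8 distance ranges on 2 sides (median of all viewpoints 3.03). For Hbb-b2 they were Slc20a1, Aqp1, Mfhas1_Gm16793, Stk16_Glb1l and March8, with 1.13 to 1.36 points (median 2.79).

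**Figure D2:**
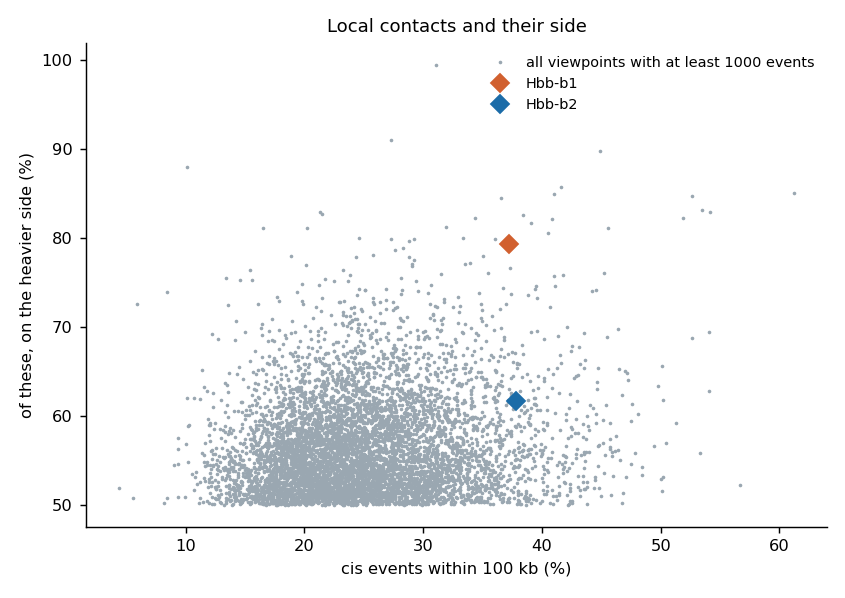
Share of cis events within 100 kb (x axis, %) and the share of these on the heavier side (y axis, %) for all 6718 viewpoints with at least 1000 events. Hbb-b1 lies at 37.2% and 79.4% and Hbb-b2 at 37.8% and 61.6%, both to the right of the median of 24.3%.

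The LCR took the largest share of any named region. No file used here marks enhancers, so the LCR interval was defined by genes, as the 28065 bp from the 5′ end of Hbb-y to Olfr66, the next olfactory receptor gene (chr7:111001755-111029819). It held 361, 616 and 618 events of Hbb-b1, which is 11.4%, 11.0% and 11.4% of its cis events, and 372, 644 and 666 events of Hbb-b2, which is 11.3%, 11.1% and 11.8%. Observed over expected, with the expectation from all viewpoints at the same distances, was 5.83, 5.94 and 6.06 for Hbb-b1 (5.92 ± 0.119, SD, n = 2) and 4.66, 4.74 and 5.00 for Hbb-b2 (4.77 ± 0.145). All 3 libraries lay close together. The expectation is scaled to the viewpoint's own events between 2.5 kb and 1 Mb, so a high count in the LCR interval lowers the ratios elsewhere. Each of the 54 DpnII fragments of the interval had events with both viewpoints, and 51 of them for Hbb-b1 and 50 for Hbb-b2 were above expectation in the sum. The window at this distance ranked 6th of 13418 windows on either side of a viewpoint for Hbb-b1 (5.89, median 0.959) and 8th of 13423 for Hbb-b2 (4.74, median 0.984). At the same distance on the opposite side the ratio was 0.619 for Hbb-b1 and 0.935 for Hbb-b2.

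**Figure D3:**
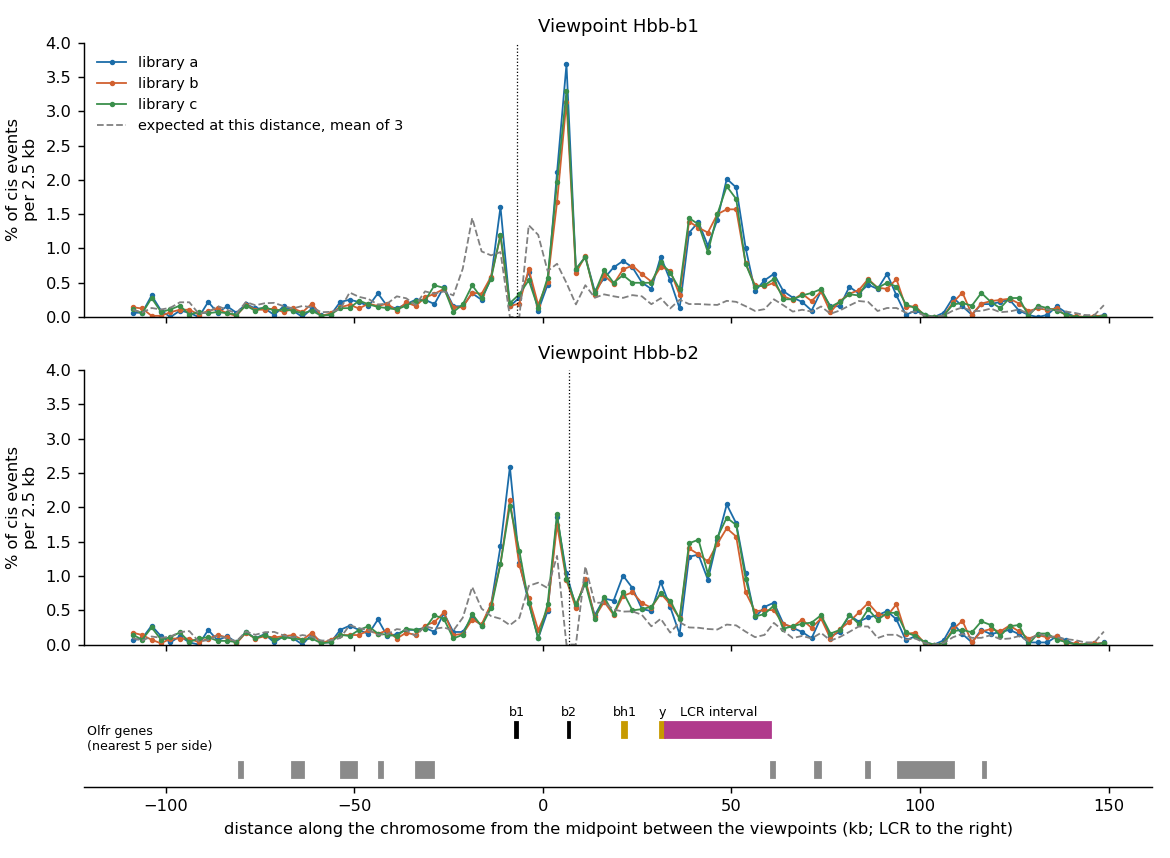
Percent of cis events per 2.5 kb window (y axis) against distance from the midpoint between the viewpoints (x axis, kb, LCR to the right) for Hbb-b1 (top) and Hbb-b2 (bottom), 1 line per library. The dashed line is the mean expectation, which starts 2.5 kb from each viewpoint, and the track shows the viewpoints, Hbb-bh1, Hbb-y, the LCR interval and the nearest 5 Olfr genes on each side. The signal is above expectation in all libraries over most of the LCR interval, with a dip in its first 5 kb, where library a is below it in the window at 36.2 kb, and it falls by about 140 kb.

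Contact was not even along the interval. In the 5 kb next to Hbb-y, Hbb-b1 had 15, 41 and 48 events and a ratio of 1.90 ± 0.773. In the next 3 windows the ratio was 7.01 ± 0.467, 6.99 ± 0.408 and 7.89 ± 0.575, and in the last 2 it was 5.70 ± 0.429 and 3.78 ± 0.0997. For Hbb-b2 the 6 windows had 1.44, 5.50, 5.71, 6.32, 4.99 and 3.29, in the same order. Window 1 differed from window 2 by more than the spread in both profiles, while windows 2 and 3 did not differ beyond their spread. Of the 30-base words of window 1, 22.8% recur on chromosome 7, against 0.264% to 17.8% in the other windows, and their part in the low count was not tested.

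**Figure D4:**
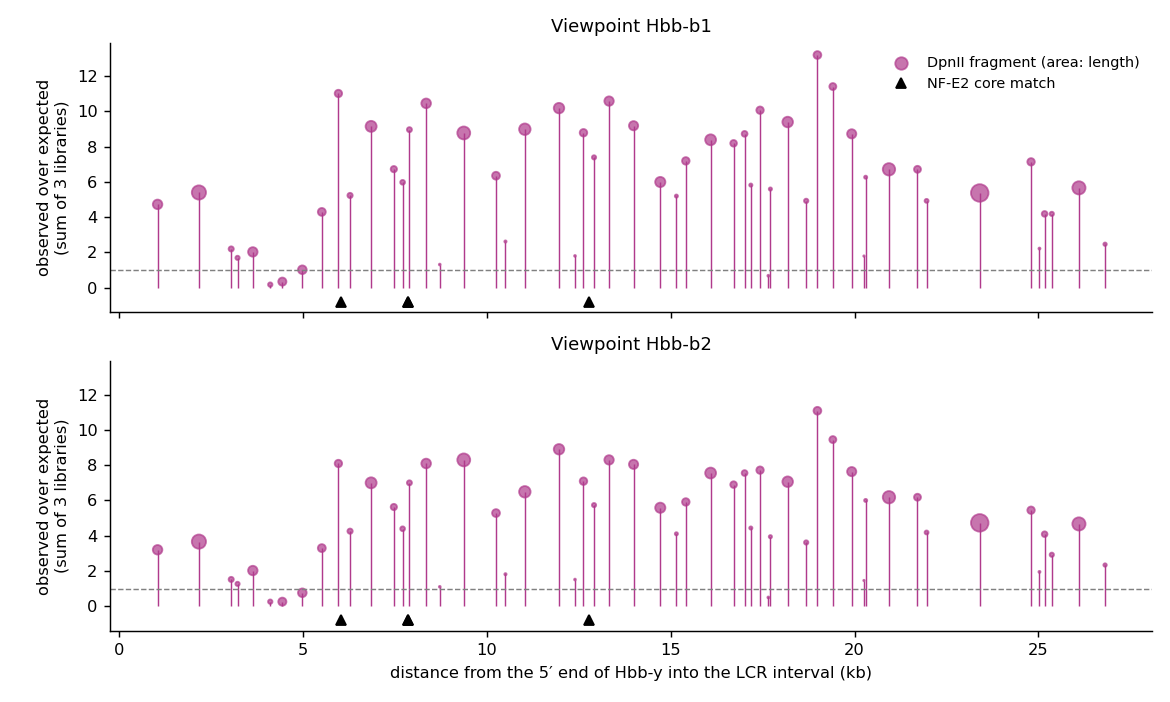
Observed over expected per DpnII fragment in the LCR interval (y axis, sum of 3 libraries, 1 dashed) against distance from the 5′ end of Hbb-y (x axis, kb) for Hbb-b1 (top) and Hbb-b2 (bottom). The area of a point stands for fragment length and triangles mark matches to the NF-E2 core, which lie between 6.045 and 12.8 kb. The highest fragment reaches 13.2 for Hbb-b1 and 11.1 for Hbb-b2.

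Single fragments were called where their summed count passed a negative binomial test at their distance, with Benjamini-Hochberg adjustment over all pairs of viewpoint and fragment, and each library was above expectation. Over all viewpoints 248 of 28838887 pairs passed (0.00086%). Hbb-b1 had 6 called fragments, of which 4 lay in the LCR interval and the other 2 within 1 kb of the Hbb-b2 viewpoint. Hbb-b2 had 3, of which 2 lay in the LCR interval and 1 within 1 kb of the Hbb-b1 viewpoint. Of the 30-base words of the calls beside a viewpoint, 15.5% and 89.1% for Hbb-b1 and 10.7% for Hbb-b2 recur on chromosome 7. The part of shared sequence in these calls was not tested. The LCR calls of Hbb-b1 were chr7:111007508-111007928, chr7:111008142-111009073, chr7:111009552-111009747 and chr7:111009748-111010461. Those of Hbb-b2 were the neighbours chr7:111020513-111020977 and chr7:111020978-111021351.

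The calls fell on different fragments although the counts there were alike. At chr7:111007508-111007928, called for Hbb-b1 with adjusted p = 0.00161 by the negative binomial test, Hbb-b1 and Hbb-b2 each had 17, 20 and 22 events. It lies 45.3 kb from Hbb-b1, where 5.35 events were expected in the sum of the libraries, and 31.5 kb from Hbb-b2, where 7.29 were (adjusted p = 0.503). At chr7:111020513-111020977, called for Hbb-b2 with adjusted p = 0.00128 by the same test, the counts were 19, 19 and 23 for Hbb-b2 and 17, 20 and 22 for Hbb-b1. Here 5.5 events were expected for Hbb-b2 at 44.5 kb and only 4.47 for Hbb-b1 at 58.4 kb, which was not called (adjusted p = 0.375). The test also uses the dispersion of the distance bin, which is estimated from all viewpoints. It was 0.393 in the bin that holds the called pairs and 1.74 and 2.45 in those of the uncalled pairs. All LCR calls of both viewpoints fell in this same bin, 44.5 to 47.7 kb from their viewpoint. Their place along the interval is therefore not read as a result. When the highest 0.1% of standardised counts were left out of the dispersion, 1184 pairs passed over all viewpoints (0.00411%), and Hbb-b1 had 22 calls and Hbb-b2 20. Then 17 LCR fragments were called for both viewpoints, out of 19 for Hbb-b1 and 17 for Hbb-b2, between chr7:111007508 and chr7:111022003.

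2 LCR fragments are shown because they had the highest summed counts, 59 and 59 events of Hbb-b1 and 59 and 61 of Hbb-b2. By observed over expected other fragments of the interval stood above the first of them, and for Hbb-b2 chr7:111009748-111010461 and chr7:111013296-111014139 had as many events. Of each, 300 bases of the plus strand are given, chr7:111007629-111007928 and chr7:111020576-111020875, with matches to GCTGAGTCA (the core of the NF-E2 site), CCACACCC and CCAAT on either strand in capitals.
LCR fragment nearer to Hbb-y: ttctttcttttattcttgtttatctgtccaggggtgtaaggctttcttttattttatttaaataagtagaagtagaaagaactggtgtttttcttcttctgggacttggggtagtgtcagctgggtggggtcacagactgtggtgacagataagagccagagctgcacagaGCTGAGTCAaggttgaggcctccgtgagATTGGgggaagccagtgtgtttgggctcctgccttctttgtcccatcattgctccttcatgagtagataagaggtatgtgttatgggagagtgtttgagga
LCR fragment farther from Hbb-y: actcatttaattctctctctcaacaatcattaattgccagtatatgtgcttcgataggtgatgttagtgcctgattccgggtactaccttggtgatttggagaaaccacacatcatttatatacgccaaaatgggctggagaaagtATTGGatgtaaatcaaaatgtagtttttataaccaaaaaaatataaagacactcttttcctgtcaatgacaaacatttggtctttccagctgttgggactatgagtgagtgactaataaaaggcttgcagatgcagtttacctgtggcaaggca
The fragment nearer to Hbb-y holds 1 NF-E2 core and the other none. The letters GCTGAGTCA occurred in 0.369% of windows of 300 bases on chromosome 7 and in 0.454% of promoters. These shares are not on the scale of a count over the 28065 bp of the interval. In the whole interval the letters occurred 4 times, in 3 fragments. Besides the fragment shown, these were chr7:111009552-111009747, with 2 matches and 15, 17 and 16 events of Hbb-b1, and chr7:111014166-111014600, with 9, 17 and 18. Hbb-b2 had 14, 19 and 18 events at the former and 9, 16 and 22 at the latter. Other fragments with high counts held none, among them chr7:111014740-111015418 with 14, 26 and 13 events of Hbb-b1, chr7:111013296-111014139 with 15, 24 and 20 of Hbb-b2 and chr7:111010488-111011766 with 10, 20 and 25 of Hbb-b2.

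The embryonic genes were contacted above expectation as well, but below the LCR by more than the spread. Over Hbb-y and Hbb-bh1 together Hbb-b1 had 53, 89 and 70 events, a ratio of 3.46 ± 0.206 (SD, n = 2), and Hbb-b2 had 63, 90 and 78, a ratio of 2.503 ± 0.383. Hbb-y, the gene next to the LCR, had 27, 49 and 44 events of Hbb-b1 (3.73 ± 0.125). Hbb-bh1 had 26, 40 and 26 (3.18 ± 0.549), which did not differ from Hbb-y beyond the spread. From Hbb-b2 they had 2.70 ± 0.0154 and 2.34 ± 0.689.

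For the other beta-like members of the row the ratio with Hbb-b1 rose from Hbb-bh3 over Hbb-bh2 to Hbb-bh0, but their events per kb fell in this order. The pseudogene Hbb-bh3, the member nearest to the adult genes, had 19, 37 and 31 events and a ratio of 2.03 ± 0.168. Hbb-bh2 had 12, 19 and 18 (2.91 ± 0.0925). The pseudogene Hbb-bh0, which lies on a single fragment beside Hbb-y, had 8, 14 and 10 (5.08 ± 0.328). From Hbb-b2 the ratios were 0.971 ± 0.0767, 1.68 ± 0.144 and 3.80 ± 0.364, in the same order. The expectation is per fragment and takes no account of fragment length. Events of Hbb-b1 per kb, over all libraries, were 33.8, 27.5 and 20.6 in that order, and the part of fragment length in these ratios was not tested. Hbb-y, nearer still to the LCR, had a lower ratio with Hbb-b1 than Hbb-bh0, at 3.73. The stretch between the viewpoints was below expectation for both, at 0.804 ± 0.0399 for Hbb-b1 and 0.698 ± 0.0674 for Hbb-b2. There 44.2% of 30-base words recur on chromosome 7, against 20.2% within 1 Mb, and the part of these repeats in the ratio was not tested.

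**Figure D5:**
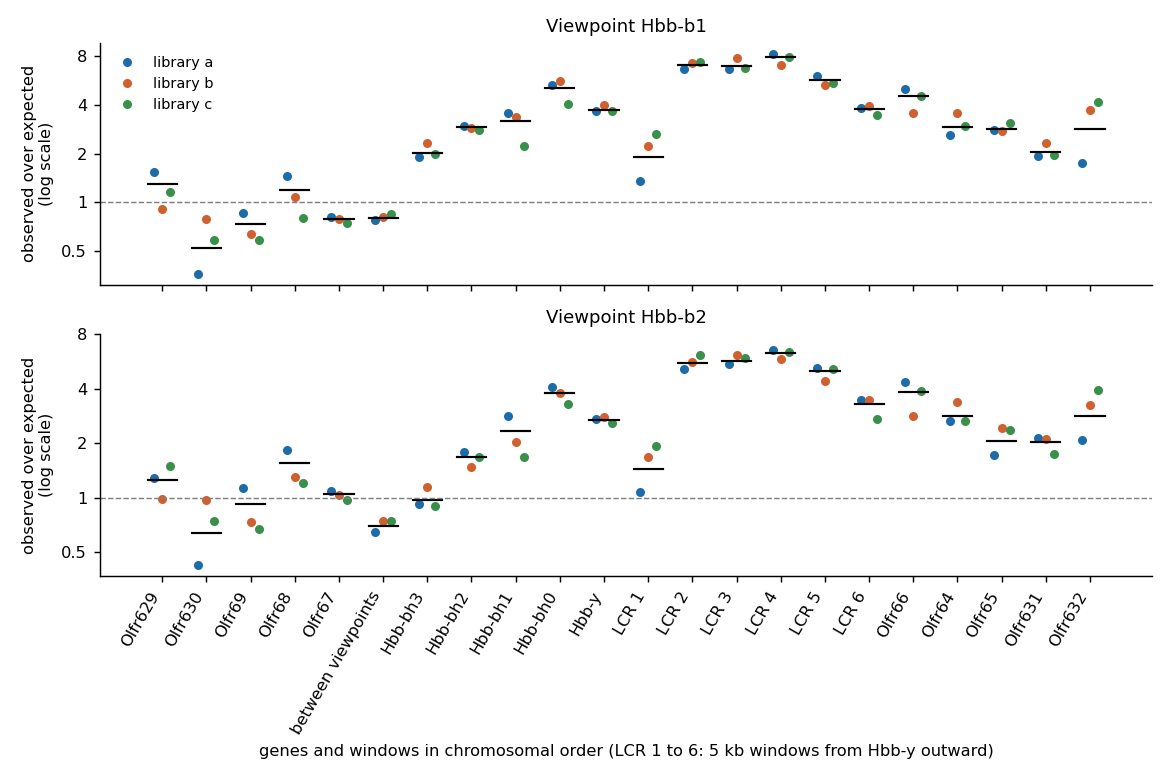
Observed over expected (y axis, log scale, 1 dashed) for named genes and windows in chromosomal order, for Hbb-b1 (top) and Hbb-b2 (bottom). Points are libraries a, b and c and bars the mean (n = 2). LCR windows 2 to 4 are the highest at 6.99 to 7.89 for Hbb-b1, and all 5 Olfr genes beyond the LCR lie above 1 in each library.

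The olfactory receptor genes were not alike on both sides. Beyond the LCR, Olfr66 had 14, 17 and 21 events of Hbb-b1, a ratio of 4.52 ± 0.660 at 67.4 kb. Olfr64, Olfr65, Olfr631 and Olfr632, between 78.9 and 124 kb away, had ratios of 2.94 ± 0.473, 2.86 ± 0.0925, 2.04 ± 0.142 and 2.86 ± 1.56. All 5 were above expectation in each library for both viewpoints, and so were the 20 kb windows of all fragments around them. From Hbb-b1 these windows had 3.21 ± 0.0620 at 60 to 80 kb and 2.501 ± 0.0246 at 80 to 100 kb. At 100 to 120 kb the ratio was 1.91 ± 0.429 and at 120 to 140 kb 1.67 ± 0.486. Being above expectation was therefore not particular to the Olfr genes. On the side of the adult genes Olfr67, only 22.0 kb from Hbb-b1, had 17, 27 and 25 events and a ratio of 0.792 ± 0.0292, below expectation in each library. Olfr68, Olfr69, Olfr630 and Olfr629, in this order, had 1.196 ± 0.368, 0.737 ± 0.174, 0.526 ± 0.233 and 1.29 ± 0.359. From Hbb-b2 these 5 had 1.04 ± 0.0566, 1.546 ± 0.413, 0.918 ± 0.305, 0.64 ± 0.308 and 1.26 ± 0.0281, and Olfr68 was above expectation in each library. The next genes on this side were higher. Olfr628 had 2.21 ± 1.55 with Hbb-b1 and 2.59 ± 1.57 with Hbb-b2, and Olfr243 had 2.38 ± 1.57 and 2.55 ± 1.38. With Hbb-b1 both were below 1 in library b. Within 100 kb of Hbb-b2 on this side, 2 of 6 Olfr genes were above expectation in each library, against 4 of 4 on the LCR side. There every 20 kb window of all fragments was above 1 in each library too, and on this side only the window next to the viewpoint.

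Contact on the LCR side fell below expectation within a few windows. In 20 kb windows from Hbb-b1 the ratio was 6.05 ± 0.234 at 40 to 60 kb, 2.501 ± 0.0246 at 80 to 100 kb and 1.67 ± 0.486 at 120 to 140 kb, and then 0.548 ± 0.115 at 140 to 160 kb. From Hbb-b2 it was 1.80 ± 0.208 at 100 to 120 kb, 0.627 ± 0.282 at 120 to 140 kb and 0.333 ± 0.178 at 140 to 160 kb. Given the 13.8 kb between the viewpoints, these steps lie at about the same place on the chromosome. Since most events of the viewpoints match, this follows from the matching and is not a second measurement of the place. On the opposite side every 20 kb window of Hbb-b1 within 200 kb lay below 1, at 0.565 ± 0.00911 next to the viewpoint and 0.411 ± 0.151 at 100 to 120 kb. From 260 kb to 1 Mb nearly all windows were low on both sides. Because the expectation is scaled to the viewpoint's own events, the excess around the LCR lowers such ratios. The part of this scaling in the values below 1 was not tested. In each library of Hbb-b1, 34 of 37 windows on the LCR side (median ratio 0.298) and 35 of 37 on the opposite side (median 0.351) lay below 1, and the Olfr genes there had too few events each to be set apart from this level. A window above 1 in each library of Hbb-b1 lay at 520 to 540 kb on the LCR side, with 11, 21 and 12 events (1.86 ± 0.277). From Hbb-b2 the window at 500 to 520 kb had 10, 21 and 9 (1.58 ± 0.267), with library c below 1 at 0.845. Over all 36 Olfr genes within 1 Mb on the LCR side the ratio of Hbb-b1 was 1.52 ± 0.0250, with the nearest 5 genes holding 57, 108 and 104 of the 79, 137 and 144 events and 25 of the 36 genes below a mean ratio of 1. Over the 63 on the opposite side it was 0.752 ± 0.144, with 50 genes below 1. For Hbb-b2 these were 1.43 ± 0.0401 and 0.879 ± 0.136.

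Tested against each other on a log2 scale with limma, after the expectation at each distance had been taken off, 30 of 293 fragments with at least 10 events differed between Hbb-b1 and Hbb-b2 (10.2%), 18 with the higher value for Hbb-b1 and 12 for Hbb-b2. Without library c none of 209 did (72 at an unadjusted p under 0.05), and with no replicate block none of 293 did (15). Without library a 19 of 239 did, 6 higher for Hbb-b1 and 13 for Hbb-b2. With raw shares none of the 293 did (0%), with 7 at an unadjusted p under 0.05. Of 90 regions and windows, 14 differed after the distance correction (15.6%) and none without it (0%). The LCR interval was higher for Hbb-b1 by a log2 difference of 0.31 ± 0.048 (SE, limma adjusted p = 0.00755), and by -0.015 ± 0.033 without the correction (adjusted p = 0.815). In fits without 1 library each remaining library counted as a sample, so that without library a the libraries b and c were 2 samples. The LCR call was lost without library a (limma adjusted p = 0.104), without library b (0.114), with no replicate block (0.0786) and with no minimum of events (0.396). The embryonic genes were higher by 0.45 ± 0.076 (limma adjusted p = 0.00805), and by -0.11 ± 0.069 without the correction (adjusted p = 0.808). This call was lost without any 1 of libraries a, b and c (limma adjusted p = 0.0829, 0.0616 and 0.0662), with no replicate block (0.416) and with no minimum of events (0.258). The difference of Hbb-bh3, Hbb-bh2 and Hbb-bh0 together was 0.92 ± 0.083 (limma adjusted p = 0.000542), and -0.06 ± 0.050 without the correction (adjusted p = 0.808). These calls rest on the expectation and not on the counts. Because most events of the viewpoints match, the SEs and p-values do not measure a spread between separate measurements. At chr7:110980439-110980511, between the Hbb-b2 viewpoint and Hbb-bh3, each viewpoint had 3, 4 and 3 events, and the log2 difference was 1.08 ± 0.074. At chr7:110979068-110980131 it was 1.17 ± 0.085, with 9, 13 and 10 events of Hbb-b1 and 9, 13 and 12 of Hbb-b2. At chr7:110958540-110959282, on the opposite side, it was -1.18 ± 0.079, with 20, 22 and 17 events of Hbb-b1 and 19, 25 and 17 of Hbb-b2. Since nearly all events of the 2 viewpoints match, the contacts of the 2 adult genes with the LCR cannot be told apart here.

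Beyond 1 Mb the adult promoters had fewer events than other promoters of chromosome 7, with a ratio of 0.795 ± 0.0337 for Hbb-b1 and 0.790 ± 0.0440 for Hbb-b2. Olfr genes at that distance, 162 in all, had 13, 23 and 24 events of Hbb-b1 and a ratio of 0.641 ± 0.00119. Of 5 listed erythroid genes of the chromosome, 4 were found in the annotation. Uros, an enzyme of heme synthesis 29.9 Mb away, had 13, 18 and 8 events with Hbb-b1, where 1.248, 2.468 and 2.374 were expected. Kcnn4, a red cell potassium channel, had 0, 7 and 8, Ftl1, the ferritin light chain, 2, 4 and 4, and Blvrb, a biliverdin reductase, 1, 3 and 1. All 4 are captured promoters themselves, and so each was compared with the 512 captured promoters of chromosome 7 beyond 1 Mb. Fragments within 25 kb of such promoters had a ratio of 2.22 ± 0.00382 with Hbb-b1, against 0.536 ± 0.0382 farther away. The Olfr genes beyond 1 Mb, at 0.641, lay between these values, so they are not read as low for fragments away from captured promoters. Counted down from the highest ratio with Hbb-b1 among the 512, Uros was at place 42, Blvrb at 37, Ftl1 at 33 and Kcnn4, which had no events in library a, at 1. With Hbb-b2 the places were 38, 25, 38 and 4 in the same order.

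Seen from neighbouring promoters the locus gave few events. Fam160a2, 1.58 Mb away on the LCR side, had 3, 5 and 4 events with the LCR interval (ratio 3.84 ± 0.845) and 0, 0 and 0 with the stretch that holds the adult genes, where 0.5, 1.03 and 1.02 were expected and a count of 0 allows up to 3 in each library. Rrm1, 1.38 Mb away on the opposite side, had 4, 15 and 21 events with the LCR interval (2.49 ± 0.977) and 5, 11 and 3 with the adult stretch (1.99 ± 0.812). Trim34a, the nearest captured promoter on the LCR side at 0.424 Mb, had 3, 5 and 1 (1.14 ± 0.705) and 0, 1 and 0 (0.0781 ± 0.110). Over the nearest 10 captured promoters, 5 on each side, the LCR interval had 14, 46 and 53 events (ratio 1.15 ± 0.297) and the adult stretch 10, 23 and 16 (0.841 ± 0.136), and the summed ratio was higher at the LCR interval for 8 of the 10. In library a the 2 ratios were 0.938 and 0.937, in b 1.26 and 0.88, and in c 1.46 and 0.609. This difference was not tested.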

How the data were processed

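NuTi Capture-C was done in 3 libraries. The authors trimmed reads with Trim Galore, aligned them with Bowtie to mm9, removed PCR duplicates and counted unique ligation events per DpnII fragment with CCseqBasicM. The deposited signal values are events per 100000 cis events of a viewpoint and library, scaled by the authors with CaptureCompare. All values were whole multiples of 1 event (tolerance 0.01), which gave counts. A second deposited file holds other values, the viewpoint positions, of which 3 ends were mended.

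Members and lists were chosen with earlier results of these data known. Named were the viewpoints, Hbb genes, the nearest 5 Olfr genes and 5 viewpoints per side, called fragments, the 5 LCR fragments with most events, up to 5 differing fragments per direction, listed erythroid genes and the 5 most similar viewpoints. Olfr628 and Olfr243 were named in addition. Expected counts came from 50 distance bins between 2.5 kb and 1 Mb over viewpoints with at least 1000 events. They were scaled to each viewpoint's own events in this range. Dispersion came by moments per bin, and the threshold was an adjusted p of 0.05. The authors' caller peaky was not run. edgeR had been planned for Hbb-b1 against Hbb-b2, but the deposited unit is a signal, so limma 3.58.1 in R 4.3.3 was used on log2(value + 31.5), with library as a block since both viewpoints share each library. Scripts ran in Python 3.11.15 with numpy 2.4.6, pandas 2.3.3 and scipy 1.17.1 and were tested on simulated data. For the calls the simulation had the same dispersion at all distances. For limma it drew the viewpoints separately, with more events per fragment and no distance correction. The simulations therefore do not cover matched events, sparse counts or the distance correction of that comparison. Sequences are of mm9 and starts from RefSeq. Events are few per fragment, so counts of single fragments are uncertain. Intervals for counting error are not given, and the upper limit given for a count of 0 covers counting error only.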

Additional observations from a re-analysis of the deposited data

How the results depend on the processing

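Of 132 values of 17 results under alternatives, 82 kept their call, stayed within the spread of the main value or, for counts of fragments, stayed within a fixed factor of the main count. Counts of called fragments of 4 for Hbb-b1, against 6, and of 2 for Hbb-b2, against 3, are among these 82. Called fragments of Hbb-b1 and Hbb-b2 were 6 and 3, where 248 of 28838887 pairs passed over all viewpoints. With trimmed dispersion they were 22 and 20 (1184 pairs over all viewpoints) and with Poisson counts 105 and 82 (176152 pairs). With fragment length in the expectation they were 15 and 12 (3092 pairs). Without 1 library they ranged from 4 to 5 for Hbb-b1 and were 2 for Hbb-b2 each time, with 183 to 204 pairs over all viewpoints. The LCR ratios of Hbb-b1 and Hbb-b2 were 5.63 and 4.44 with viewpoints weighted equally, 5.24 and 4.23 with fragment length, and 6.39 and 5.19 without fragments that share sequence with a viewpoint or lie within 1 kb of another. The embryonic gene ratio of Hbb-b1 was 3.18, 2.90 and 3.74 under these alternatives, and that of Hbb-b2 was 2.08 with fragment length. At the Olfr genes of the LCR side Hbb-b1 and Hbb-b2 had 1.56 and 1.49 with viewpoints of chromosome 7 only, 1.22 and 1.14 with fragment length, and 1.64 and 1.56 without shared-sequence and near fragments. Hbb-b1 had 1.56 there with equal weights, and 1.49 to 1.54 without 1 library. With events from 10 kb on, the share within 100 kb was 34.6% and 34.0% and the share on the LCR side 83.9% and 65.4%, and without shared-sequence and near fragments they were 35.1% and 35.6%, and 77.3% and 68.0%.

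The comparison of Hbb-b1 with Hbb-b2 depended on several choices. Its p-values, taken on largely matching events, do not measure a spread between separate measurements. With no distance correction 0 fragments differed, and the LCR and embryonic differences were -0.015 and -0.11. With no replicate block 0 fragments differed (15 at an unadjusted p under 0.05), and the differences of 0.31 and 0.45 had limma adjusted p = 0.0786 and 0.416. With no minimum of events 631 of 4050 fragments differed, and the differences of 0.31 and 0.45 had adjusted p = 0.396 and 0.258. With 3 libraries as 3 samples 83 fragments differed, and both region differences stayed past the threshold (adjusted p = 0.00586 and 0.0228). They also did without shared-sequence and near fragments (both 0.00655), where 30 fragments differed. Without library a, b or c, with each remaining library counted as a sample, 19 of 239, 41 of 189 and 0 of 209 fragments differed. The LCR difference then lay between 0.30 and 0.32 with limma adjusted p of 0.104, 0.114 and 0.00197. The embryonic difference lay between 0.41 and 0.53 with limma adjusted p of 0.0829, 0.0616 and 0.0662. Pseudocounts of 10 and 100, chosen after seeing the data, gave 39 and 25 fragments and limma adjusted p = 0.00188 and 0.0231 for the LCR and 0.00125 and 0.0368 for the embryonic genes. The DESeq2 and TMM alternatives were not run, since the deposited values were treated as a signal here, although counts could be worked back. No other cause of these changes was tested.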
